A study of Mus musculus with 4 samples.

Results

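The genes described here are the matrix metalloproteinases (Mmp), the ADAMTS proteases (Adamts) and the tissue inhibitors of metalloproteinases (Timp), in AB1-HA and LLC mouse tumor cells cultured for 24 h with vehicle or interferon gamma (IFN-γ). They were chosen with earlier results of these data known. Membership went by symbol: every Mmp, Adamts or Timp gene followed by a number, reached through the RefSeq accession of its array probes. Of 46 such symbols in the gene table, 45 had a named probe (22 Mmp, 19 Adamts and 4 Timp genes, with 59 probes), out of 20089 named genes with a value on all 4 arrays. Mmp27 was not matched to a probe and is not analysed here.

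Matrix metalloproteinases are zinc proteases that are secreted or held on the cell surface as inactive precursors and, once activated, cut collagens, proteoglycans, growth factors and each other. ADAMTS proteases are secreted relatives with thrombospondin repeats that cut proteoglycans of the aggrecan and versican family or trim procollagens, and TIMPs bind the active site of these enzymes and block it. In tumors this balance is known for its part in invasion and in remodelling of the stroma, and IFN-γ is the cytokine of activated T cells and natural killer cells.

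AB1-HA cells come from a BALB/c mouse mesothelioma. LLC cells (labelled 3LL too) come from a lung carcinoma of C57BL6 mice. Total RNA of each line under each treatment was hybridised to 1 single-colour (Cy3) array, so each of the 4 groups is a single sample, no difference below has a replicate check, and no p-value is given. The RNA comes from whole cultures, so fewer expressing cells and less RNA per cell cannot be told apart.

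Values are background-subtracted spot signals in intensity units, and the differences are log2 differences between 2 arrays after each was scaled to its 75th percentile (1380.2 to 1598 units). A member was called higher or lower from 2-fold upwards, which is a threshold of size. Where the scanner software did not mark a gene as well above background on 1 of the arrays, only a bound is given ("at least"), against the higher of its own signal and the lowest signal marked well above background on that array (7.01 to 8.26 units), and where it was marked on neither array there is no value. The ± of a difference combines the scanner software's own error estimates of both spots on the log2 scale. It covers the spot and neither culture nor labelling. The signal of 1 gene cannot be set against that of another, since probes differ in brightness.

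On each array 57.5% to 58.2% of gene probes were well above background, and no spot was saturated. The IFN-γ targets Irf1 and Gbp2 were higher on the IFN-γ array of both lines (4.44 and 10.08 on the log2 scale in AB1-HA, 4.43 and 11.30 in LLC). Of 10 mesothelial markers, 5 were well above background on the AB1-HA vehicle array, namely Msln, Pdpn, Krt19, Krt8 and Krt18, and 4 were so on the LLC vehicle array. Msln, Pdpn and Krt19 were higher in AB1-HA (Krt19 3.22-fold with vehicle), whereas the keratins Krt8 and Krt18 were 172-fold and 485-fold higher in LLC. The mesothelial markers Wt1, Upk3b, Upk1b, Lrrn4 and Calb2 were well above background on no array. Of 9 lung epithelial markers, 4 (Krt8, Krt18, Scgb1a1 and Napsa) were well above background on the LLC vehicle array and the same 4 on that of AB1-HA, with Napsa 29.8-fold lower in LLC, and Sftpc, Sftpb, Nkx2-1, Epcam and Cdh1 were so on no array. The leukocyte markers Ptprc and Adgre1 were well above background on no array, while Itgam, Csf1r, Cd14 and Cd3e were so on all 4.

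Of the 45 members, 26 were well above background on at least 1 array and 13 on all 4. The numbers were 18 on the AB1-HA vehicle array, 16 with IFN-γ, 23 on the LLC vehicle array and 21 with IFN-γ. Over all genes, 64.1% to 65.6% were well above background on an array. The 19 members that were well above background nowhere were Mmp2, Mmp7, Mmp8, Mmp9, Mmp12, Mmp15, Mmp16, Mmp20, Mmp21, Mmp25, Mmp28, Adamts3, Adamts12, Adamts13, Adamts15, Adamts16, Adamts18, Adamts19 and Adamts20. They include both gelatinases, Mmp2 and Mmp9, which cut denatured collagen, and the macrophage elastase Mmp12. In 6 members (Mmp1a, Mmp1b, Mmp3, Mmp13, Adamts9 and Timp3) both LLC arrays and neither AB1-HA array were well above background, and in Adamts5 and Timp4 the reverse held. Over all 20089 genes these patterns took 3.46% and 2.30%.

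**Figure D1:**
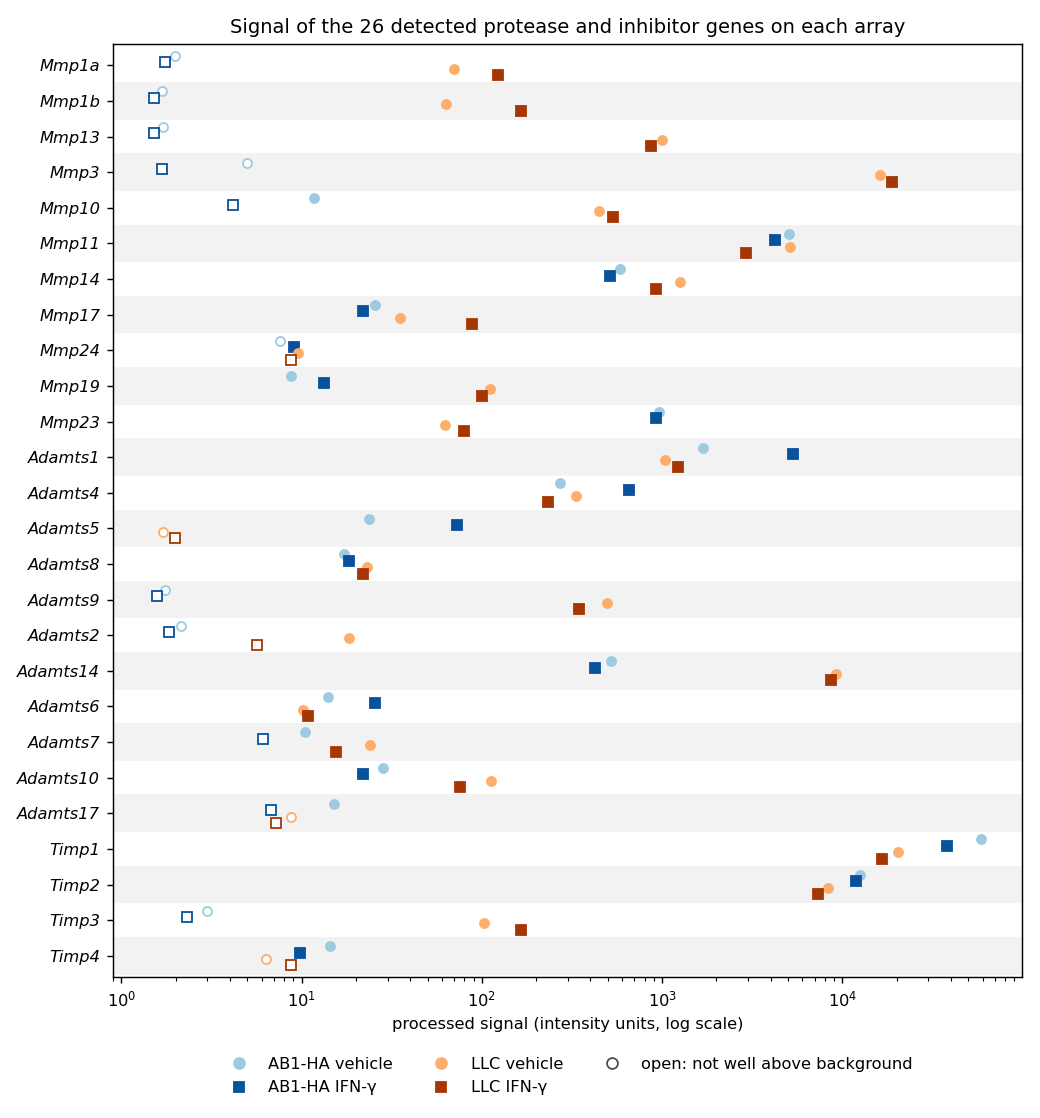
Processed signal (intensity units, log scale) of the 26 members that were well above background on at least 1 array, by role from collagenases at the top to inhibitors at the bottom. Circles are vehicle arrays, squares IFN-γ arrays, blue AB1-HA and orange LLC, with 1 array per group and open symbols where the signal was not well above background. Mmp3 reads 16141 and 18787 units in LLC and 4.98 and 1.68 in AB1-HA, while the symbols of Mmp11 and Timp2 lie close together.

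The comparison of the lines with vehicle asked how their protease genes differ at rest. It is described first for 1 gene cluster, and members outside it, such as Adamts9 and Mmp19, were higher in LLC too. On chromosome 9, 10 Mmp genes follow each other with no other protein-coding gene between them, in the order Mmp13, Mmp12, Mmp1b, Mmp3, Mmp1a, Mmp10, Mmp8, Mmp27, Mmp20 and Mmp7. Of the 9 with a named probe, 5 were well above background on both LLC arrays and none on both AB1-HA arrays, and Mmp12, Mmp8, Mmp20 and Mmp7 were so on no array. The 5 genes are collagenases (Mmp13, Mmp1a, Mmp1b) and stromelysins (Mmp3, Mmp10).

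Their promoters are shown because these genes share a location and a presence in LLC. Mmp8 is shown as a neighbour well above background on no array. The other such neighbours, Mmp12, Mmp20 and Mmp7, held the letters marked here in at least 1 window and are not shown. Each sequence runs 5′ to 3′ from 250 bases before the annotated start through the following 50 (RefSeq, GRCm38.p6), and capitals mark matches to the letters TGANTCA, the AP-1 motif (a palindrome, so both strands read alike).
Mmp13 (chr9:7272264-7272563, plus strand): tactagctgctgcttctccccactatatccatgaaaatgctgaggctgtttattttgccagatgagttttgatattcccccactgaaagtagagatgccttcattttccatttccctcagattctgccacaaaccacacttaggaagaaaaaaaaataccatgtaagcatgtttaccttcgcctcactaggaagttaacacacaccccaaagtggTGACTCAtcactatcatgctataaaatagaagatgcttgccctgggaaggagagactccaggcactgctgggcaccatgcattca
Mmp1b (chr9:7387977-7388276, minus strand): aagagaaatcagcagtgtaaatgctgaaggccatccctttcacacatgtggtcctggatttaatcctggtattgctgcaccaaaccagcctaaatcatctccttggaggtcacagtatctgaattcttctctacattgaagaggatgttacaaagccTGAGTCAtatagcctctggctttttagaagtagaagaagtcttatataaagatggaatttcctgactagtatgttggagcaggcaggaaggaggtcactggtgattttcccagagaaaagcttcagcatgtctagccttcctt
Mmp3 (chr9:7445572-7445871, plus strand): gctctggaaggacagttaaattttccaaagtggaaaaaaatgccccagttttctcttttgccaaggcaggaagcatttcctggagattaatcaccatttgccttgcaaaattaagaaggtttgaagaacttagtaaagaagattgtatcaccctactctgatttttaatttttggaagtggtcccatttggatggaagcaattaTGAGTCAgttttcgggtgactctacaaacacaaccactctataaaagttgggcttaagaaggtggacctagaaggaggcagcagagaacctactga
Mmp1a (chr9:7463891-7464190, plus strand): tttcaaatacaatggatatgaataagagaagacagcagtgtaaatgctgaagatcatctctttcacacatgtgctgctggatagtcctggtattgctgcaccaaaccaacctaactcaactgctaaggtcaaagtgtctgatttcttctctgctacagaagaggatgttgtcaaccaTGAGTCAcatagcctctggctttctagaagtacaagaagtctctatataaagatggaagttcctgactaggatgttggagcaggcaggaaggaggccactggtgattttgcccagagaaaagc
Mmp10 (chr9:7502092-7502391, plus strand): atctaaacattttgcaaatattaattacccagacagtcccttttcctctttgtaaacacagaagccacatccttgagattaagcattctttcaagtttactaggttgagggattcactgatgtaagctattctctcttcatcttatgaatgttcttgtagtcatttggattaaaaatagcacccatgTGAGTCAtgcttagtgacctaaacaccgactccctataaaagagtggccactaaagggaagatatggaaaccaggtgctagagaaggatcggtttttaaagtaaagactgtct
Mmp8 (chr9:7558179-7558478, plus strand): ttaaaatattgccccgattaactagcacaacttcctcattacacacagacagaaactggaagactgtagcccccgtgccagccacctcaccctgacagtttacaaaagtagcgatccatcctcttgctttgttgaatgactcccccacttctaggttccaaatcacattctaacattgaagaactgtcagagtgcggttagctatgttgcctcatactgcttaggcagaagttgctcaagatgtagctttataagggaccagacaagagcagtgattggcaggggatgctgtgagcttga

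The AP-1 letters were found in the promoters of all 5 cluster genes present in LLC, and also in 3 of the 4 that were well above background nowhere (Mmp20, and 1 of the 2 annotated windows of each of Mmp12 and Mmp7). Among all 32851 promoter windows of this length 7.81% held them. The match began 35 bases before the annotated start in Mmp13, 46 in Mmp3, 63 in Mmp10, 73 in Mmp1a and 93 in Mmp1b. The letters TATAAA, the TATA motif (both strands searched), were in all 9 of these genes, against 13.6% of all windows. In Mmp12 and Mmp7 they too were in 1 of the 2 windows. GAS letters (TTCNNNGAA), to which STAT factors bind, were in none of the 9, and the ISRE motif (a pair of GAAA stretches 2 bases apart, both strands), bound by IRF factors, was in Mmp13 alone, against 8.30% and 3.44% of all windows. The Adamts1 promoter held neither, nor the AP-1 letters. Promoter windows were available for 31 of the 45 members, and Adamts4, Adamts5 and Mmp17 had none. Among those 31, Mmp23 alone held GAS letters. The Mmp1a and Mmp1b windows were identical at 245 of 272 aligned bases (90.1%). These 2 genes are close copies, so their probes may each read both transcripts.

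The collagenase Mmp13, the main interstitial collagenase of rodents, read 1.70 units on the AB1-HA vehicle array, 1.52 with IFN-γ, 992 on the LLC vehicle array and 863 with IFN-γ. Both LLC arrays were high and both AB1-HA arrays at background, a difference of at least 104-fold with vehicle (3.92 on the log2 scale under normexp background correction, which lifts dim signals by an offset). Mmp1b read 1.69, 1.52, 62.8 and 164 in the same order (AB1-HA vehicle and IFN-γ, then LLC vehicle and IFN-γ), at least 6.57-fold higher in LLC with vehicle. Mmp1a read 1.99, 1.75, 70.3 and 123, at least 7.35-fold higher in LLC. Under normexp these fell to 0.94 for Mmp1b and 0.44 for Mmp1a on the log2 scale, short of 2-fold.

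The stromelysin Mmp3, which cuts many matrix proteins and activates other Mmp precursors, was at background in AB1-HA and high in LLC. It read 4.98 and 1.68 units in AB1-HA and 16141 and 18787 in LLC, at least 1688-fold apart with vehicle (7.05 on the log2 scale under normexp). Mmp10, its close relative, read 11.6, 4.18, 446 and 536. Its AB1-HA vehicle signal was well above background, and the difference was 5.05 ± 0.46 (33.1-fold higher in LLC), or 2.23 under normexp. Mmp11, a stromelysin activated inside the cell by furin, read 5054, 4218, 5096 and 2904, and lay within 2-fold between the lines (−0.20 ± 0.20 with vehicle).

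**Figure D2:**
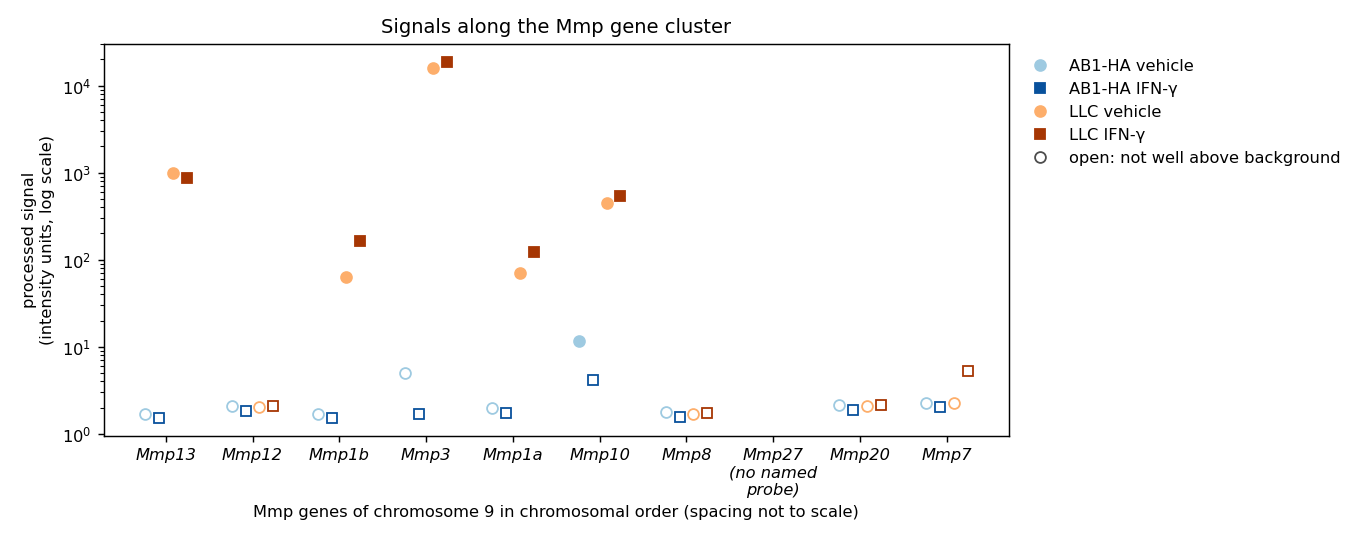
Processed signal (intensity units, log scale) of the Mmp genes of chromosome 9 in chromosomal order (spacing not to scale), with 1 array per group. Filled symbols are well above background and open ones are not. Mmp13, Mmp1b, Mmp3, Mmp1a and Mmp10 are filled on both LLC arrays, Mmp10 (11.6 units) is the 1 filled AB1-HA symbol, and Mmp12, Mmp8, Mmp20 and Mmp7 are unfilled on all 4 arrays.

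Mmp14, the membrane-type protease that activates the Mmp2 precursor, read 582, 512, 1257 and 929 units, with LLC above AB1-HA by 0.90 ± 0.20 with vehicle, short of 2-fold. Mmp17, a membrane-type protease held by a lipid anchor, read 25.4, 22.0, 35.0 and 87.5 (0.25 ± 0.30 with vehicle). Mmp24 was near the background limit on all 4 arrays (7.61 to 9.51 units by 1 probe, 2.36 to 12.1 by the other) and had no value with vehicle. Mmp19 read 8.72, 13.3, 111 and 99.5 and was higher in LLC by 3.46 ± 0.57 on the log2 scale (1.13 under normexp). Mmp23, which lacks the hemopexin domain of most of the family, ran the other way at 962, 926, 62.1 and 79.1, lower in LLC by 17.9-fold (−4.17 ± 0.21, and −2.67 under normexp). Of 10 Mmp genes with a value, Mmp23 alone was at least 2-fold lower in LLC with vehicle. The 6 that were higher were Mmp1a, Mmp1b, Mmp3, Mmp10, Mmp13 and Mmp19. Over all genes with a value, 16.5% were higher and 16.0% lower.

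Among the ADAMTS proteases that cut proteoglycans, Adamts9 was present in LLC and Adamts5 in AB1-HA. Adamts9 read 1.74 and 1.57 units in AB1-HA and 497 and 346 in LLC, at least 52.0-fold higher in LLC with vehicle (2.49 on the log2 scale under normexp). Adamts5, an aggrecanase, read 23.7 and 72.8 in AB1-HA and 1.69 and 1.99 in LLC, at least 3.91-fold lower in LLC (−0.36 under normexp), and its other probe gave the same direction (27.6 and 41.5 against 1.99 and 2.10). Adamts1 and Adamts4, both proteoglycan-cutting enzymes present in both lines, lay within 2-fold with vehicle (−0.90 ± 0.20 and 0.08 ± 0.20). Adamts8 depended on the probe: 1 probe read 17.3, 18.2, 23.1 and 21.9 (0.21 ± 0.47), and the other 2.53 and 2.24 in AB1-HA against 63.3 and 35.5 in LLC, at least 6.62-fold higher in LLC.

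The procollagen-trimming and remaining ADAMTS genes gave 2 more members higher in LLC. Adamts14, which removes the N-propeptide of procollagens, read 522, 426, 9184 and 8596 units and was 15.2-fold higher in LLC (3.93 ± 0.20), but a second, dimmer probe read 25.7, 14.9, 16.6 and 22.6 and was lower in LLC with vehicle (−0.85). Adamts2, of the same group, read 2.15, 1.85, 18.3 and 5.64, well above background on the LLC vehicle array alone (at least 1.92-fold above AB1-HA). Its other probe was at background on all 4 arrays (1.71 to 2.46). Adamts10, which acts on fibrillin microfibrils, read 28.4, 21.8, 113 and 75.9 (3.43-fold higher in LLC, 1.78 ± 0.31), and its value fell to 0.12 under normexp background correction. Adamts7, a protease of cartilage oligomeric matrix protein, read 10.4, 6.11, 24.0 and 15.5 and was just short of 2-fold with vehicle (0.999 ± 0.51). That value passed 2-fold under the other scalings (up to 1.32 with cyclic loess) and turned sign under normexp (−0.37). Adamts6 read 14.0, 25.7, 10.2 and 10.9 (−0.67 ± 0.61), and Adamts17 read 15.1, 6.74, 8.70 and 7.16, well above background on the AB1-HA vehicle array alone (at least 2.01-fold higher there). This Adamts17 call was lost under each other scaling (−0.68 with cyclic loess, −0.90 with quantile normalization), and its other probe was at background on all 4 arrays (1.59 to 1.79).

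The inhibitors split. Timp1, which blocks most secreted Mmp enzymes, read 58771 and 38209 units in AB1-HA and 20269 and 16609 in LLC, so both AB1-HA arrays lay above both LLC arrays, and it was 3.36-fold lower in LLC with vehicle (−1.75 ± 0.20). Timp3, which binds to the matrix and also blocks ADAMTS aggrecanases, read 2.99, 2.32, 103 and 164, at least 10.8-fold higher in LLC (0.34 on the log2 scale under normexp). Timp4 was dim throughout (14.3, 9.76, 6.37 and 8.67), at least 2.36-fold lower in LLC with vehicle, a call lost under normexp (−0.31) and cyclic loess. Timp2, which blocks Mmp enzymes and also takes part in Mmp2 activation, read 12452, 11847, 8284 and 7315 and stayed within 2-fold (−0.80 ± 0.20). A second Timp2 probe read 20526 in AB1-HA with IFN-γ and 59829 and 35235 in LLC, the opposite order, and its AB1-HA vehicle spot carried an outlier mark and was left out.

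Of the 45 members, 25 had a value between the lines with vehicle. Of these 10 were past 2-fold higher in LLC and 5 lower, 60.0% either way, where over all 13832 genes with a value 16.5% were higher and 16.0% lower, 32.5% either way. The members' median was 0.90 and that of all genes −0.05. Of the 25 values, 10 were bounds, from members that were well above background in 1 line only. The median was 2.80 over the 10 Mmp genes with a value and 0.21 over the 11 Adamts genes. A value was given to members well above background on at least 1 of both arrays, which selects for differences.

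With IFN-γ on both lines the same 10 members were higher in LLC, joined by Mmp17 and Adamts7. Of 24 members with a value, 12 passed 2-fold higher and 6 lower (18 either way), where over all 13890 genes with a value 15.4% and 13.3% did (28.7% either way). Mmp3 was at least 2529-fold higher in LLC, Mmp13 at least 116-fold, Mmp10 at least 72.2-fold, Adamts9 at least 46.6-fold, Timp3 at least 22.1-fold, Mmp1b at least 22.0-fold and Mmp1a at least 16.6-fold. Adamts14 (4.36 ± 0.20), Mmp19 (2.92 ± 0.41), Mmp17 (2.01 ± 0.31), Adamts10 (1.82 ± 0.33) and Adamts7 (at least 2.09-fold) completed the higher side. The second Adamts14 probe was at 0.62. Under normexp Mmp3 was at 7.95, Mmp13 at 3.58, Adamts9 at 2.57, Mmp10 at 2.46, Mmp1b at 1.96 and Mmp1a at 1.74 on the log2 scale. Normexp took Mmp19 (0.89), Mmp17 (0.47), Adamts10 (0.56), Timp3 (0.92) and Adamts7 (0.15) below 2-fold, and Adamts7 was also lost under array median and quantile scaling.

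On the lower side in LLC with IFN-γ were Mmp23 (−3.53 ± 0.21), Adamts5 (at least 9.72-fold), Adamts1 (−2.09 ± 0.20), Adamts4 (−1.48 ± 0.20), Adamts6 (−1.22 ± 0.54) and Timp1 (−1.18 ± 0.20). Adamts1, Adamts4 and Adamts6 had been within 2-fold with vehicle. Under normexp Adamts5 (−0.02) and Adamts6 (−0.18) were not called, and Mmp23 was at −2.53. All comparisons draw on the same 4 arrays of 1 slide, so each array enters several of them.

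**Figure D3:**
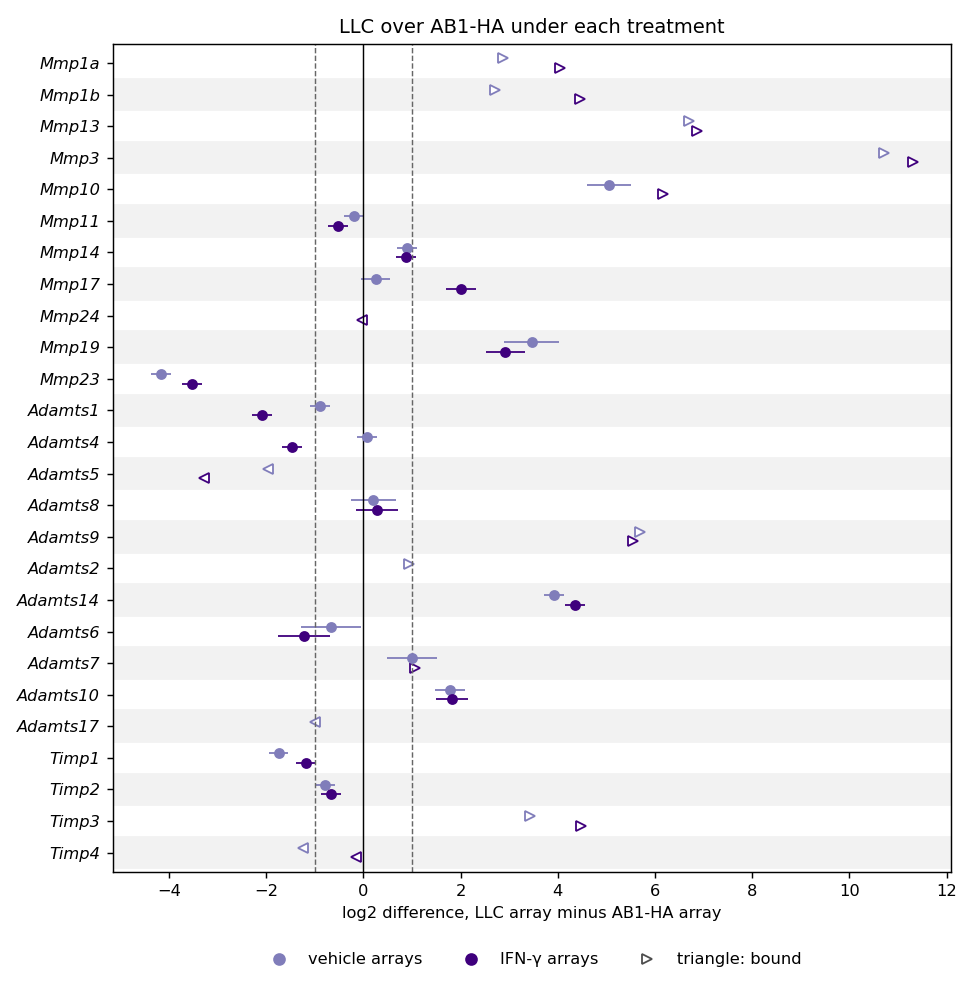
Log2 difference of the LLC array minus the AB1-HA array for members with a value, for the vehicle arrays (light) and the IFN-γ arrays (dark), with 1 array per group. Circles are measured differences with the combined scanner error as bars, triangles are bounds, and dashed lines mark 2-fold. With vehicle, Mmp3, Mmp13 and Mmp10 of the gene cluster lie far to the right (at least 10.72, at least 6.70 and 5.05). The bounds of Mmp1a and Mmp1b (at least 2.88 and 2.71) lie less far right than that of Adamts9 outside the cluster (5.70). Mmp23 lies far to the left (−4.17).

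The IFN-γ comparison in AB1-HA asked which of these genes differed after 24 h of the cytokine. The 3 members past 2-fold upwards with IFN-γ were Adamts1, Adamts4 and Adamts5, all proteoglycan-cutting ADAMTS enzymes. Adamts1 (NM_009621) read 1679.9 units with vehicle and 5285 with IFN-γ, 3.06-fold higher (1.61 ± 0.20), while its LLC arrays read 1042 and 1228. Adamts4 (NM_172845) read 271 and 655, 2.35-fold higher (1.23 ± 0.20). Adamts5 (NM_011782) read 23.7 and 72.8, 2.99-fold higher (1.58 ± 0.28), but its other probe read 27.6 and 41.5, a difference of 0.55, and normexp background correction turned its sign (−0.19). Adamts8, of the same group and present in AB1-HA, was at 0.04 ± 0.49.

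Adamts17 was the 1 member at least 2-fold lower on the AB1-HA IFN-γ array, by a bound of at least 2.06-fold (15.1 against 6.74 units), and this call was lost under cyclic loess normalization (−0.95) and with the mean over its probes. Timp1 was 1.58-fold lower (−0.66 ± 0.20), Mmp10 at least 1.59-fold lower and Adamts6 1.79-fold higher (0.84 ± 0.40), all short of 2-fold. The other measured members lay between −0.59 (Timp4) and 0.57 (Mmp19). Mmp11 (−0.30), Mmp14 (−0.22), Mmp23 (−0.10), Adamts14 (−0.33) and Timp2 (−0.11) differed by about the scanner error of 0.20 or little more. With 19 of 45 members given a value, 3 were higher and 1 lower (21.1% either way), where over all 13189 genes with a value 2.98% were higher and 1.17% lower (4.15% either way). The members' median was −0.22 and that of all genes −0.08.

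In LLC the members past 2-fold upwards with IFN-γ were the collagenase Mmp1b and the membrane-type Mmp17. Mmp1b (NM_032007) read 62.8 units with vehicle and 164 with IFN-γ, 2.97-fold higher (1.57 ± 0.21). Its near copy Mmp1a read 70.3 and 123, just under 2-fold (0.997 ± 0.21). Mmp17 (NM_011846) read 35.0 and 87.5, 2.86-fold higher (1.51 ± 0.23), against 25.4 and 22.0 in AB1-HA. Under normexp background correction Mmp1b (0.84) and Mmp17 (0.83) kept their direction and fell short of 2-fold.

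The other cluster genes of LLC did not share this size of difference. Mmp13 was at −0.01 ± 0.20, Mmp3 at 0.41 ± 0.20 and Mmp10 at 0.46 ± 0.20. Adamts2 was the 1 member at least 2-fold lower (18.3 against 5.64 units, at least 2.17-fold), a call that had no value under normexp, the stricter background filter or the mean over its probes. Timp3 was 1.82-fold higher (0.86 ± 0.21), Mmp23 1.45-fold higher (0.54 ± 0.21) and Mmp11 1.54-fold lower (−0.62 ± 0.20, with −0.34 by its other probe). Adamts1 (0.43 ± 0.20), Adamts4 (−0.33 ± 0.20), Adamts9 (−0.33 ± 0.20) and Timp1 (−0.10 ± 0.20) stayed within 2-fold. Of 22 members with a value, 2 were higher and 1 lower (13.6% either way), where over all 13413 genes with a value 3.68% were higher and 1.46% lower (5.14% either way), and the medians were 0.06 and −0.06.

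**Figure D4:**
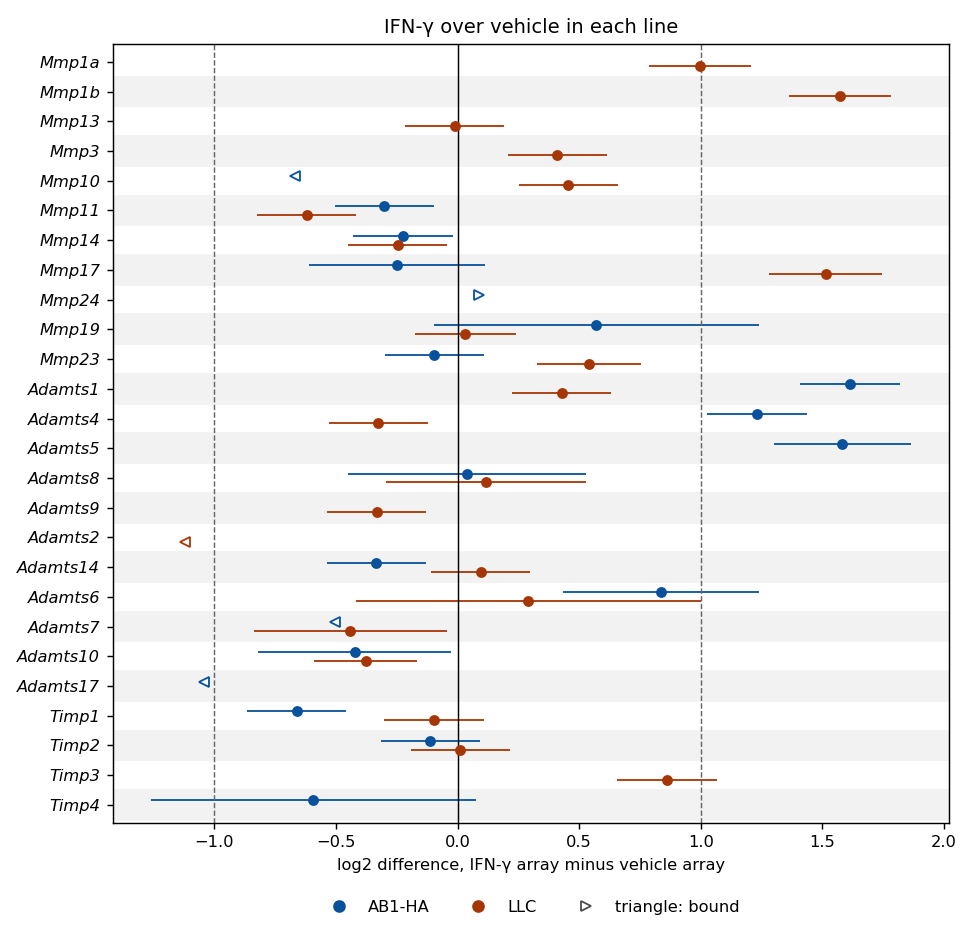
Log2 difference of the IFN-γ array minus the vehicle array for members with a value in AB1-HA (blue) or LLC (brown), with 1 array per group. Circles are measured differences with the combined scanner error as bars, triangles are bounds, and dashed lines mark 2-fold. Adamts1, Adamts4 and Adamts5 lie to the right of 2-fold in AB1-HA (1.61, 1.23 and 1.58), and Mmp1b and Mmp17 do in LLC (1.57 and 1.51).

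The lines' IFN-γ differences were then set against each other over the 13 members well above background on all 4 arrays. At least 2-fold apart were Mmp17, toward LLC (1.76 ± 0.43), and Adamts4 (−1.56 ± 0.29) and Adamts1 (−1.19 ± 0.29), toward AB1-HA. Of all 12002 genes measured on all 4 arrays, 2.54% were at least 2-fold apart toward LLC and 1.69% toward AB1-HA (4.23% either way). Mmp17 fell to 0.49 under normexp. The other 10 members lay between −0.55 (Adamts6, ± 0.82) and 0.64 (Mmp23, ± 0.30). Adamts5 and Mmp1b have no such value, since each was measured in 1 line only.

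**Figure D5:**
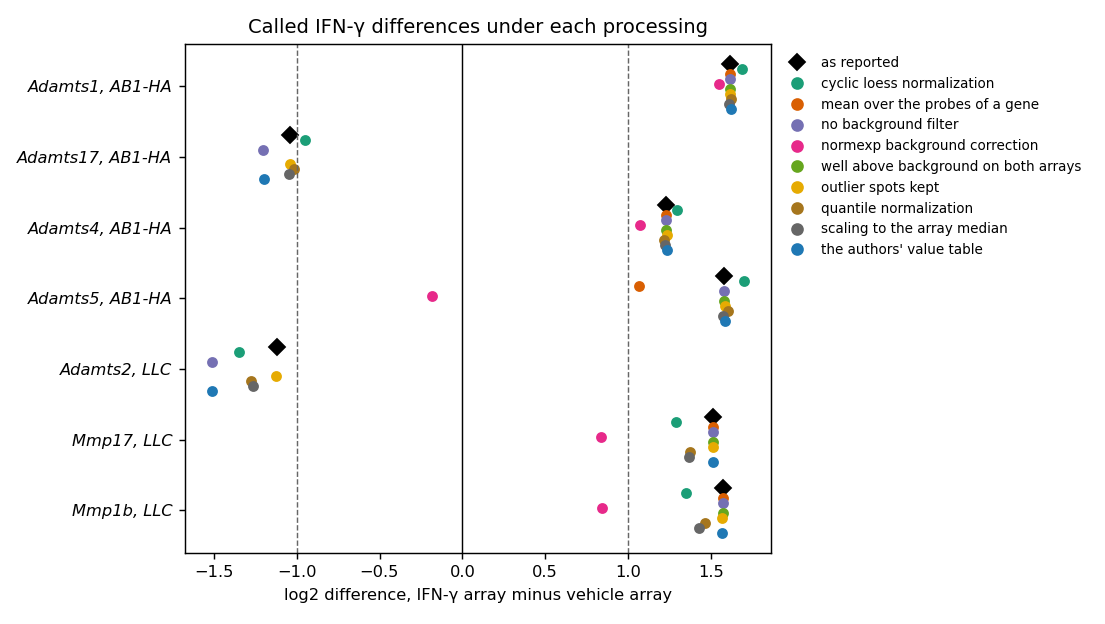
Log2 difference of the IFN-γ array minus the vehicle array for the 7 members called in either line, as reported (black diamonds) and under each other processing (coloured circles), with 1 array per group and dashed lines at 2-fold. Adamts1 and Adamts4 stay beyond 2-fold throughout (lowest values 1.55 and 1.07), whereas normexp moves Adamts5 to −0.19.

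Genes that activate, hold back or accompany these proteases were described by a list of 36, of which 35 had a probe. In AB1-HA, 1 of 25 with a value was higher with IFN-γ (cathepsin S, Ctss, at least 15.1-fold) and 2 were lower: the urokinase receptor Plaur (−1.09) and the sheddase Adam19 (−1.03). In LLC, 2 of 28 were higher (Ctss, at least 2.76-fold, and the plasminogen activator inhibitor Serpinb2, 1.44), and tissue plasminogen activator, Plat, was lower (−1.43). Between the lines with vehicle, 6 of 27 were higher in LLC: the proprotein convertase Pcsk6 (at least 168-fold), Plat (2.92), the protease inhibitor Serpine2 (at least 5.23-fold), urokinase, Plau (2.29), Adam9 (1.38) and Adamtsl3 (1.12). Lower in LLC were 5: the heparan sulfate-cutting Hpse (−2.61), Adam12 (−1.41), the hyaluronidase Hyal1 (−1.24), Adam19 (−1.17) and Adam17 (−1.08). These vehicle counts lie near the shares over all genes, of which 16.5% were higher and 16.0% lower in LLC with vehicle. With IFN-γ on both lines, 9 of 28 with a value were higher in LLC and 4 lower, where over all genes 15.4% and 13.3% were. For the counts of this list with IFN-γ over vehicle, the shares over all genes were 2.98% higher and 1.17% lower in AB1-HA, and 3.68% and 1.46% in LLC. Furin (−0.74) and Bsg, an inducer of Mmp expression (−0.29), lay within 2-fold, and Reck, a membrane-bound Mmp inhibitor, was well above background on no array.

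Among 27 matrix genes that these proteases cut, 0 of 21 with a value passed 2-fold with IFN-γ in AB1-HA, where the procollagen Col1a1 was at 0.11 and thrombospondin Thbs1 at 0.88. In LLC 2 of 22 were lower, Col1a1 (at least 3.74-fold, 31.5 against 3.18 units) and Col3a1 (−1.04). Over all genes, 4.15% passed 2-fold either way with IFN-γ in AB1-HA, and 1.46% were lower in LLC. With vehicle, 5 of 21 were higher in LLC: the basement membrane genes Col4a1 (2.79), Nid1 (2.75), Col4a2 (2.39) and Hspg2 (2.36), and versican, Vcan (1.46), a substrate of Adamts1, Adamts4, Adamts5 and Adamts9. Lower in LLC were 5: Col1a2 (−12.02), Col1a1 (−8.85), Thbs1 (−4.88), osteopontin, Spp1 (−1.89), and elastin, Eln (at least 3.24-fold). Over all genes 32.5% were past 2-fold either way in this comparison. With IFN-γ on both lines, 7 of 22 with a value were higher in LLC and 4 lower, where over all genes 15.4% and 13.3% were. Col1a2 read 62880 units on the AB1-HA vehicle array and 17.5 on the LLC vehicle array.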

How the data were processed

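RNA of 4 cultures was measured on 4 Agilent whole mouse genome arrays of 1 slide. The intensity values deposited by the authors were read by Feature Extraction 10.7.1.1 (Agilent), which per the file headers took background off each spot. No scaling between arrays had been applied. The value table deposited by the authors holds log2 values, for which the sources used here state no method. Its columns matched, with a correlation of 1.00, log2 signals scaled to the 75th percentile and centred per probe, and its medians were 0.11 and −0.08 (AB1-HA vehicle, IFN-γ) and −0.13 and 0.08 (LLC).

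Outlier spots (166 to 201 an array) were dropped, spots of a probe were averaged as log2, and each array was scaled to its 75th percentile. Accessions were matched without version to a RefSeq table (GRCm38.p6), used for names and gene order only, because the arrays were annotated on an older build. Names were found for 26581 of 39429 probes. A gene was given by its probe with the highest mean, and other probes are named where a call depends on them. Scanner errors came from the deposited intensity error column. Without replicates no test was run. The members, lists and thresholds were chosen with earlier results of these data known. The naming rule was to give every member's value on each array where at least 1 array was well above background, and list genes past 2-fold, up to 6 per list and comparison. For the lists, the comparison of the lines with IFN-γ is given by counts only. Marker lists for fibroblasts and endothelial cells were also computed: 7 of 8 and 2 of 5 were well above background on the AB1-HA vehicle array, and 6 of 8 and 2 of 5 on that of LLC. The alternatives were 3 other scalings, normexp (offset 50) on median signals, the authors' table, a stricter or no background filter, the mean over probes, and outlier spots kept. Python 3.11.15 with numpy 2.4.6 and pandas 2.3.3, and R 4.3.3 with limma 3.58.1, were used.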

Additional observations from a re-analysis of the deposited data

Results flagged for a closer look

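Adamts4 and Mmp17 are listed here because their IFN-γ differences ran in opposite directions in the 2 lines and lay at least 2-fold apart, a difference between groups that was not tested. Adamts4 was at 1.23 in AB1-HA and −0.33 in LLC, a difference of effects of −1.56 on the log2 scale. Mmp17 was at −0.25 in AB1-HA and 1.51 in LLC, a difference of effects of 1.76. Under normexp Mmp17 was at 0.35 in AB1-HA and 0.83 in LLC, the same direction in both lines, and the difference was 0.49. Each rests on 4 arrays, and 5 of the 13 members measured on all of them had opposite signs in the 2 lines. The share of opposite signs over all genes is not given here, so whether 5 of 13 is unusual cannot be told.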

How the results depend on the processing

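Of 81 recomputed counts of members past 2-fold, 61 lay within 1.5 times the reported count. Members higher in AB1-HA with IFN-γ (3) stayed within this range under all 9 alternatives, though normexp gave 2. The 1 lower member became 0 under cyclic loess, the mean over probes, normexp and the stricter background filter, 2 with outlier spots kept and with the authors' table, and 3 without a background filter. In LLC, the 2 higher members became 0 under normexp and 4 without a filter, and the 1 lower member 0 under normexp, the stricter filter and the mean over probes. Between the lines with vehicle, the 10 higher became 6 under normexp and 4 under the stricter filter, and the 5 lower became 2, 2 and, with cyclic loess, 3. With IFN-γ, the 12 higher became 7 and 4. Members whose IFN-γ differences were at least 2-fold apart (3) became 16 without a filter, where signals at background enter. Adamts5 in AB1-HA turned sign under normexp (−0.19), the 1 of 43 calls to turn under any alternative. Of those calls 39 stayed past 2-fold under all 3 other scalings, and 24 under every alternative that gave them a value. The cause was not tested, except that the stricter filter gives fewer members a value by its construction.

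Keeping outlier spots put Timp2 at −1.01 in AB1-HA, through its other probe. Over all genes, array median scaling moved the LLC median from −0.06 to −0.20 and the higher genes' part of all calls from 71.6% to 55.5% (60.0% by quantile, 55.7% by loess). It moved the median between lines with IFN-γ from 0.03 to −0.10, and loess that with vehicle from −0.05 to 0.09. Signals under about 30 units, as of Adamts5, Adamts17, Adamts2, Adamts6, Adamts7, Adamts8, Mmp24 and Timp4, lie near the background. The same holds for the AB1-HA signals of Mmp10, Mmp17, Mmp19 and Adamts10, and 1 array per group limits every value. Of the list genes, the LLC signals of Ctss, Serpinb2, Col1a1 and Col1a2 and the Eln signals of both lines were near this level too. List genes are given under the main processing only.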
